A study of Mus musculus with 15 samples.

Results

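The 9 genes described here encode the machinery that displays peptides on MHC class I molecules: the heavy chains H2-K1, H2-D1 and H2-T23, the light chain B2m, the peptide transporter subunits Tap1 and Tap2, the loading chaperone Tapbp, the peptide-trimming enzyme Erap1 and the transcriptional activator Nlrc5. They were taken by symbol from a table of 23284 genes measured by RNA-seq in mouse OT-I CD8 T cells, with 15 libraries in all, and all 9 were found. All 9 also had a mean of at least 1 FPKM (fragments per kilobase of transcript, scaled to the mapped fragments of the library) in some population, the level a gene needed to be tested, as did 11242 genes in all.

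OT-I cells carry a transgenic T cell receptor for the ovalbumin peptide SIINFEKL held by H-2Kb, the class I molecule whose heavy chain is encoded by H2-K1. Negatively selected CD8 T cells of OT-I mice were mixed with bone marrow-derived dendritic cells (BMDC) coated with that peptide. They were kept for 14 days in IL-2 or in a cocktail of the cytokines IL-7 and IL-21, the glycolysis blocker 2-deoxyglucose and TWS119, an inhibitor of glycogen synthase kinase 3. The 4 cultured populations were sorted by CD44, high on cells that have met antigen, and CD62L, which naive and central memory cells use to enter lymph nodes. One, CD44+CD62L-, came from IL-2, and 3 came from the cocktail: CD44+CD62L-, CD44+CD62L+ and CD44loCD62L+. The fifth population was naive OT-I cells at day 0, whose gate the sample labels give as CD44loCD62L+ and the design text as CD44-CD62L+. Age, sex and the number of mice are not stated in the sources used here. All 5 populations share the OT-I receptor, and no population was cultured without peptide, so culture, stimulation and time cannot be told apart in the comparisons with naive cells. Each population had 3 libraries, which the design text calls technical replicates. The p-values below therefore measure the spread between libraries of a population, not that between mice or cultures.

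Class I molecules show peptides from inside the cell to CD8 T cells. Proteasomes cut proteins into peptides, the Tap1-Tap2 transporter carries them into the endoplasmic reticulum, and there Erap1 trims them and Tapbp (tapasin) holds empty heavy chain and B2m at the transporter until a peptide binds. H2-K1 and H2-D1 encode classical class I heavy chains, and H2-T23 encodes Qa-1, a non-classical one that binds the NKG2A receptor of NK and CD8 T cells. Nlrc5 has no DNA-binding domain of its own and acts on class I promoters through proteins bound to their X and Y boxes, while interferons act in part through the interferon regulatory factors.

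In GRCm38 coordinates of the GENCODE annotation, 6 of the 9 genes lie on chromosome 17 within 2117 kb, in and beside the MHC. In order they are Tapbp (33915899 to 33929292, plus strand), H2-K1 (33996017 to 34000347, minus strand), Tap1 (34187553 to 34197225, plus strand), Tap2 (34203527 to 34216321, plus strand), H2-D1 (35262730 to 35267499, plus strand) and H2-T23 (36029773 to 36032855, minus strand). B2m is on chromosome 2 (122147686 to 122153083), Nlrc5 on chromosome 8 (94434356 to 94527272) and Erap1 on chromosome 13 (74639568 to 74693201), all on the plus strand. These are whole gene spans. Tap1 starts 212 bases inside the span of Psmb9, an immunoproteasome subunit gene, and where the spans overlap reads can be split between them only if the counting used strand, which is not stated in the sources used here.

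Promoter windows of RefSeq (GRCm38.p6, 250 bases before to 50 after the start) were matched for 7 of the 9 genes, all except Tap2 and Nlrc5. The upstream 150 bases of H2-K1, chr17:34000348-34000497 on the minus strand and counted from the more upstream of its 2 RefSeq starts, show the elements that class I promoters are known for. In capitals are, in order, an NF-kappaB motif, the core of an interferon-stimulated element, the X2 box and the Y box.
H2-K1: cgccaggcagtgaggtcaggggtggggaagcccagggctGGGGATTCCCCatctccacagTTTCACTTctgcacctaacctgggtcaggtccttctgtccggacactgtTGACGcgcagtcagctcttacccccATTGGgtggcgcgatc

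H2-D1 and B2m hold the same elements, and short stretches of the 3 genes, the most abundant of the 9, are set side by side to show how alike they are. The first set spans the NF-kappaB motif (GGGA, then CC after any 4 bases, with overlapping matches on both strands) and the interferon element core (TTTCNNTT, on the opposite strand in B2m), both in capitals. It covers chr17:34000430-34000458 (minus strand), chr17:35262923-35262951 (plus strand) and chr2:122147550-122147570 (plus strand).
H2-K1: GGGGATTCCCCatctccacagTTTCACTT
H2-D1: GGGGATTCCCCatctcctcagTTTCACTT
B2m: AACTGAAAatGGGAAAGTCCC
The second set spans the X2 box (TGACG) to the Y box (ATTGG), in capitals, at chr17:34000359-34000388 (minus strand), chr17:35262993-35263022 (plus strand) and chr2:122147609-122147638 (plus strand).
H2-K1: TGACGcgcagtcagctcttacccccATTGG
H2-D1: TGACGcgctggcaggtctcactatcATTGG
B2m: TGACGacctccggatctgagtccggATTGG

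In all 3 genes the 2 boxes were 20 bases apart, on the strand of the gene. A search of both strands found this pair at this spacing, which was chosen after these sequences were seen, in 31 of 32851 promoter windows, or 0.0944%, belonging to 27 genes. One of them was H2-M3, another class I heavy chain gene, picked out after the list was seen. Over the 100 bases from the NF-kappaB motif to the Y box, H2-K1 and H2-D1 were identical at 89 bases without a gap, although the block starts at -111 from the RefSeq start in H2-K1 and at -171 in H2-D1. The annotated GENCODE start of H2-D1 lies further upstream than the RefSeq one, so this block falls within an annotated H2-D1 transcript.

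Each motif was also searched alone, on both strands of the whole window. TTTCNNTT was found in 5 of the 7 genes (H2-K1, H2-D1, H2-T23, B2m and Erap1) against 23.9% of all windows, the NF-kappaB motif in 3 against 20.7%, TGACG in 4 against 20.8%, and ATTGG in 6 against 37.4%. The gamma-activated site TTCNNNGAA was in 0 of the 7 and in 8.30% of all windows. These are matches of letters and not measured binding.

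Before the members, the libraries themselves. FPKM summed to between 669341 and 781949 per library, 10006 to 10473 genes were at 1 FPKM or more, and the number of reads behind the values is unknown. None of the 135 member values was at 0, and the coefficient of variation of a member within a population ran from 0.0381% to 1.52%, with a median of 0.602%. All 12 T cell identity genes tested, such as Cd3g and Lck, had means above 1 FPKM in every population. Against naive cells, 4 of the 12 fell at least 2-fold in IL-2 cells (Cd6, Cd5, Bcl11b and Cd247), where 13.7% of all genes tested fell. In each cocktail population 3 to 4 of the 12 fell. The count was 3 in CD44loCD62L+ cells, where 6.11% of all genes tested fell. The 23 measured markers of dendritic cells and macrophages summed to 215 to 221 FPKM in the IL-2 libraries, 295 to 336 in the cocktail libraries and 339 to 342 in the naive libraries. Cst3 and Ctss made up most of these sums. Of the others, Cd74 was at 0.559 FPKM in IL-2 cells, 10.1 to 17.3 in the cocktail populations and 57.3 in naive cells, Lyz2 was at 0.427, 11.5 to 21.3 and 8.22, and C1qa, Lyz1, Ccl17 and Cd209a were listed at 0 in IL-2 cells. Other genes of the list went the opposite way, with Cd80 at 35.5 FPKM in IL-2 cells against 0.0617 in naive cells and Fcer1g at 15.9 against 2.64. B cell markers summed to 43.8 to 44.6 FPKM in naive libraries and to at most 6.99 in any cultured library. NK cell markers, 7 genes, summed to 680.4 to 688 FPKM in IL-2 libraries, 78.3 to 128 in cocktail libraries and 21.04 to 21.9 in naive libraries. Gzmc, a granzyme gene that cytotoxic T cells also express, made up 662 FPKM of the IL-2 sums, and the NK receptor gene Ncr1 was listed at 0 there. Erythroid, platelet and neutrophil markers, 12 genes, summed to 25.1 to 29.5 FPKM in naive, 1.97 to 5.79 in cocktail and 0.468 to 0.663 in IL-2 libraries, most of the naive sum being S100a8 and S100a9. Dendritic cells and B cells also express class I genes at high levels, and the part of such RNA in the results below was not tested. Fewer cells of a type and less RNA per cell cannot be told apart in these bulk libraries.

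The heavy chain genes were lowest in IL-2 cells. H2-K1, the gene of the molecule that presents SIINFEKL, stood at 2158, 2153 and 2170.2 FPKM in the naive libraries. It stood at 980.1, 973 and 983 in the IL-2 libraries. In the cocktail it was at 2214, 2199 and 2196 FPKM in CD44+CD62L- cells, at 2178, 2166 and 2177 in CD44+CD62L+ cells and at 2439, 2416 and 2436 in CD44loCD62L+ cells. The IL-2 libraries stood far below all others, and the naive libraries overlapped those of the cocktail CD44+CD62L+ cells.

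H2-D1 had a narrower range, with a highest population mean 1.61 times the lowest, against 2.48 times for H2-K1. Its naive libraries were at 1260.1, 1249.7 and 1254 FPKM, and its IL-2 libraries at 1065, 1050.0 and 1064. The cocktail libraries were at 1642, 1647 and 1644 FPKM for CD44+CD62L-, 1605, 1606 and 1604 for CD44+CD62L+ and 1712, 1696 and 1723 for CD44loCD62L+. No population overlapped another in H2-D1, a common degree of separation here (in 84.6% of genes tested the cocktail and IL-2 CD44+CD62L- libraries did not overlap). Naive cells, which overlapped the cocktail CD44+CD62L+ cells in H2-K1, sat below all cocktail populations in this gene.

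H2-T23, the Qa-1 gene, had the widest range of the 9, with a highest mean 2.62 times the lowest. Its libraries were at 317, 314 and 312 FPKM in naive cells and at 195, 196 and 191 in IL-2 cells. In the cocktail they were at 408, 410.4 and 414 FPKM for CD44+CD62L-, 435, 428 and 431 for CD44+CD62L+ and 505, 507 and 511 for CD44loCD62L+. The populations did not overlap.

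B2m, the light chain shared by all these heavy chains, was among the most abundant transcripts, ranked 4 of 11242 tested genes by mean FPKM in cocktail CD44+CD62L- cells and 30 in IL-2 cells. It was at 4335, 4382 and 4351 FPKM in naive libraries and at 3132, 3147 and 3123 in IL-2 libraries. The cocktail libraries held 5776, 5775 and 5772 FPKM in CD44+CD62L- cells, 4977, 4955 and 4982 in CD44+CD62L+ cells and 5588, 5595 and 5604 in CD44loCD62L+ cells. Every cocktail library was above every naive library, and every naive library above every IL-2 library.

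Of the transporter genes, Tap2 followed this order and Tap1 did not. Tap1 was at 147, 147 and 145 FPKM in naive libraries and at 159, 155 and 157 in IL-2 libraries. It was at 273, 271 and 274 FPKM in cocktail CD44+CD62L- cells, 297, 296 and 293 in CD44+CD62L+ cells and 277, 279.7 and 278 in CD44loCD62L+ cells. Tap1 was the one member lowest in naive cells, although the small step between naive and IL-2 cells turned direction under quantile normalization.

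Tap2, which pairs with Tap1 in the transporter, was at 139, 136 and 135 FPKM in naive libraries and at 129.6, 132 and 131 in IL-2 libraries. Its cocktail libraries were at 187, 183 and 184 FPKM for CD44+CD62L-, 201, 202.5 and 199.99 for CD44+CD62L+ and 197, 194 and 196 for CD44loCD62L+. Naive and IL-2 cells thus formed a low pair and the cocktail populations a high group for both transporter genes.

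Tapbp was at 189, 188 and 190.2 FPKM in naive libraries and at 158, 157 and 157 in IL-2 libraries. The cocktail libraries ran from 229 to 239.7 FPKM, above all others, and those of the CD44loCD62L+ cells overlapped both other cocktail populations. Tapbp had the narrowest range of the 9, with a highest mean 1.51 times the lowest.

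Erap1 had an order of its own. It was highest in naive libraries, at 64.1, 64.5 and 64.6 FPKM, and lowest in IL-2 libraries, at 39.1, 39.1 and 39.6. Between them lay the cocktail CD44+CD62L- cells at 55.0, 55.6 and 55.0 FPKM, the CD44+CD62L+ cells at 49.1, 49.7 and 49.0 and the CD44loCD62L+ cells at 45.3, 45.9 and 45.7. It was the one member higher in naive cells than in every cocktail population.

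Nlrc5, the class I activator, was at 92.3, 91.6 and 89.6 FPKM in naive libraries and at 48.4, 48.7 and 49.0 in IL-2 libraries. It stood at 98.0, 99.5 and 98.6 FPKM in cocktail CD44+CD62L- cells, at 98.4, 98.5 and 99.2 in CD44+CD62L+ cells and at 112.2, 111.7 and 112.0 in CD44loCD62L+ cells. The IL-2 libraries were again far below all others, while both CD44+ cocktail populations overlapped.

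**Figure D1:**
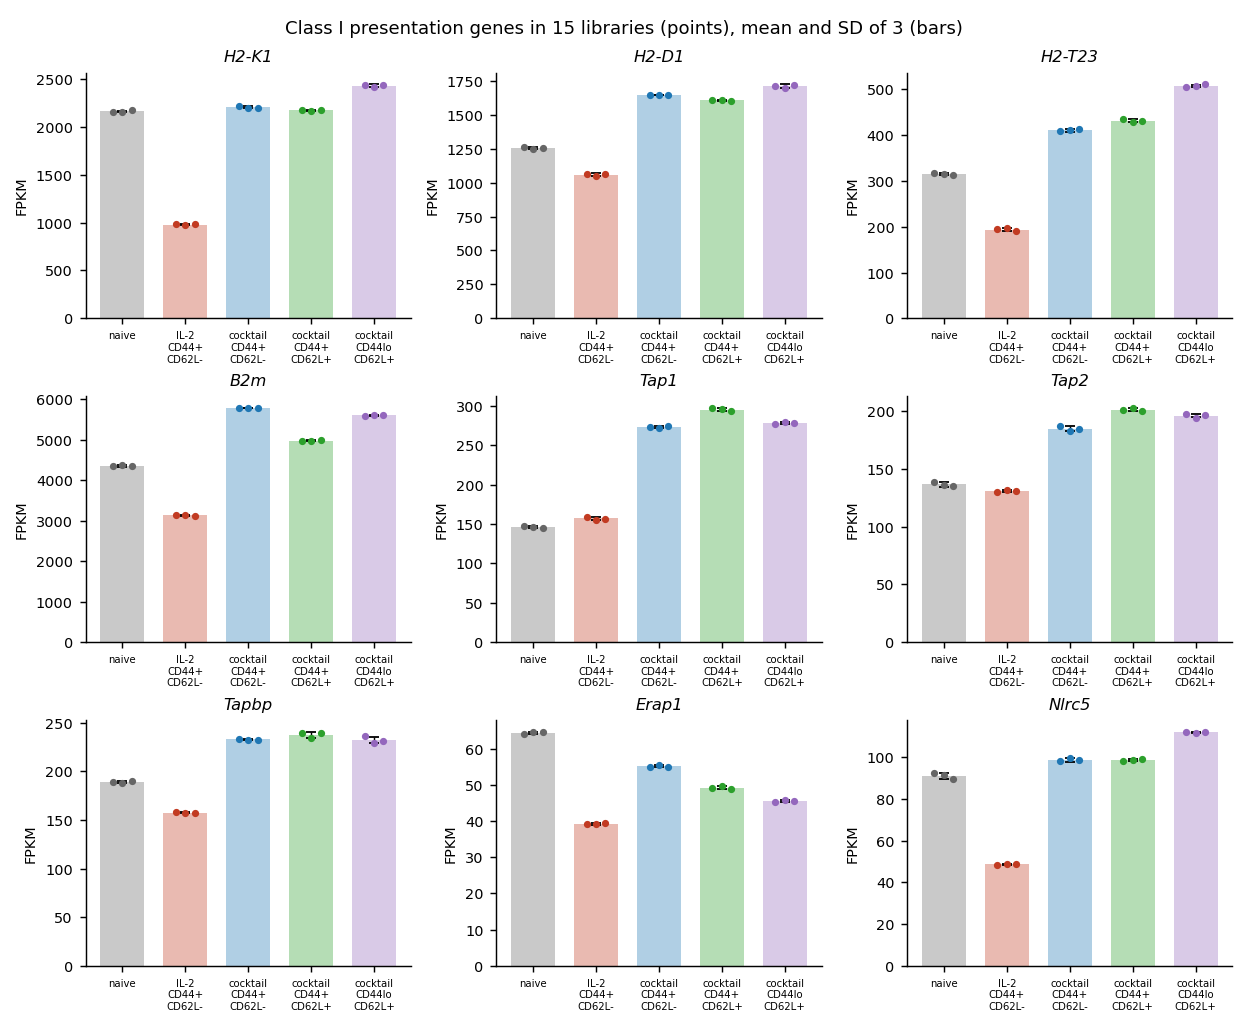
FPKM of the 9 class I presentation genes (y axis, from 0) in each library (points) of the 5 populations (x axis), with bars for the mean and lines for the SD of 3 libraries. IL-2 cells are lowest for 8 of the 9 genes, naive cells for Tap1 (a step that turned direction under quantile normalization), and naive cells are highest for Erap1.

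Across the 5 populations IL-2 cells had the lowest mean of 8 members and the highest of 0. Cocktail CD44loCD62L+ cells had the highest mean of 4 (H2-K1, H2-D1, H2-T23 and Nlrc5), cocktail CD44+CD62L+ cells of 3 (Tap1, Tap2 and Tapbp), cocktail CD44+CD62L- cells of 1 (B2m) and naive cells of 1 (Erap1). Of the 36 pairs of neighbours in these orders, 33 passed the adjusted p of limma, a linear model across all genes tested, with Benjamini-Hochberg adjustment within each comparison. That test passed most genes in most comparisons, with 91.8% of all genes tested between IL-2 and naive cells and 48.3% across the CD62L gate. The other 3 were H2-K1 in cocktail CD44+CD62L+ and naive cells (adjusted p = 0.141), Tapbp in cocktail CD44+CD62L- and CD44loCD62L+ cells (adjusted p = 0.742) and Nlrc5 in both CD44+ cocktail populations (adjusted p = 0.991).

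The first comparison asked how the culture medium bears on cells of the same CD44+CD62L- gate. All 9 members were higher in the cocktail than in IL-2, with a median log2 fold change of 0.79 against -0.01 over all genes tested. Fold changes here and below are differences of log2(FPKM + 1), positive where the population named first is higher. A gene is called changed when limma's adjusted p is under 0.05 and the change is at least 2-fold.

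By this rule 3 of the 9 rose and 0 fell, where 4.64% of all genes tested rose and 3.2% fell. H2-K1 rose by 1.17 ± 0.01 (SE, 3 libraries against 3, adjusted p = 3.3e-20), H2-T23 by 1.08 ± 0.01 (adjusted p = 2.5e-17) and Nlrc5 by 1.00 ± 0.01 (adjusted p = 6.6e-17) in limma's fit. Nlrc5 lies at the limit and was below it without the first IL-2 library or without the second cocktail CD44+CD62L- library, at 0.999966 and 0.999. Members under 2-fold were B2m at 0.88, Tap1 at 0.79, H2-D1 at 0.63, Tapbp at 0.56, Tap2 at 0.49 and Erap1 at 0.48. With a minimum of 1.5-fold in place of 2-fold, 6 of the 9 were higher, against 11.2% of genes tested.

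The adjusted p alone separated little: all 9 members passed it in the higher direction, but 84.3% of all genes tested passed it in either. The smallest two-sided p of an exact permutation test at this size, 3 libraries a side, is 0.1. Of the dendritic cell and macrophage markers, 7 of 17 tested rose in this comparison and 1 fell, where 4.64% of all genes tested rose and 3.2% fell. Lyz2 (21.3 FPKM against 0.427) and H2-Ab1 (13.7 against 0.622) were among those that rose. The one that fell was Fcer1g (3.35 against 15.9). Of the 23 measured, 15 had a mean under 1 FPKM in IL-2 cells and 10 in these cocktail cells. Some thus passed the filter only through other populations. Their rise over IL-2 cells was largely fixed by that filter, so this count of rises carries no weight. Of the 4 NK cell markers tested 1 rose, Eomes, and 2 fell, Gzmc (90.3 against 662) and Klrb1c. The part of these markers in the class I values was not tested.

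The other cocktail populations stood above IL-2 cells in the same members. H2-T23, H2-K1 and Nlrc5 were higher by 1.38, 1.31 and 1.19 in cocktail CD44loCD62L+ cells, and by 1.15, 1.15 and 1.00 in cocktail CD44+CD62L+ cells. In each of these comparisons these 3 were the members that rose, where 7.45% and 4.67% of all genes tested rose. Nlrc5 lies at the limit in the CD44+CD62L+ cells, at 1.005. After quantile normalization Tap1 was also past 2-fold, at 1.01 in the CD44loCD62L+ and 1.10 in the CD44+CD62L+ cells. These comparisons share the IL-2 libraries with the one above and also differ in the gate.

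The second comparison set IL-2 cells against naive cells. H2-K1 fell, by 1.14 ± 0.01 (SE, adjusted p = 2.6e-21 in limma's fit), from a mean of 2160.4 ± 8.78 to 979 ± 5.10 FPKM (SD, n = 3 each). It was the 1 member of 9 past 2-fold, where 13.7% of all genes tested fell and 17.6% rose. Nlrc5 (-0.89), Erap1 (-0.70) and H2-T23 (-0.69) were lower by at least 1.5-fold, which makes 4 of 9, against 25.3% of genes tested.

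H2-D1, the other classical heavy chain, differed by -0.24 (-0.39 after quantile normalization), and Tapbp by -0.26 (-0.70), B2m by -0.48 (-0.03) and Tap2 by -0.06 (-0.42). Tap1 was the exception at 0.10, but it was at -0.28 after quantile normalization. Quantile normalization also carried H2-T23 (-1.13) and Nlrc5 (-1.09) past 2-fold. The member median was -0.48 against 0.02 over all genes tested. In this comparison 2 of 17 dendritic cell and macrophage markers tested rose and 9 fell, 8 of 8 B cell markers and 2 of 3 erythroid, platelet and neutrophil markers fell, and 3 of 4 NK cell markers rose, and their part in the member values was not tested. Of the 9 B cell markers listed, 8 had a mean under 1 FPKM in each cultured population. All 12 erythroid, platelet and neutrophil markers were under it in IL-2 cells, and 5 of 7 NK cell markers in naive cells. Most B cell markers tested, and some of the other lists, thus passed the filter only through populations where they were high. Their direction was largely fixed by that filter, so these counts carry no weight.

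The third set of comparisons was of the cocktail populations with naive cells, which share the naive libraries. In cocktail CD44loCD62L+ cells, which have the gate of the naive cells in the labels, 8 members were higher than in naive cells and Erap1 was lower, and 0 of the 9 passed 2-fold, where 11.6% of genes tested rose and 6.11% fell. Past 1.5-fold were Tap1 (0.93) and H2-T23 (0.69), 2 of 9 against 19.9%. The remaining values were Tap2 0.52, H2-D1 0.45, B2m 0.36, Tapbp 0.30, Nlrc5 0.29, H2-K1 0.17 and Erap1 -0.49. After quantile normalization B2m was at 0.61, H2-T23 at 0.43 and Tapbp at 0.08. All 9 passed limma's adjusted p alone, as did 88.6% of genes tested.

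Tap1 was the member farthest above naive cells in each cocktail population, except that after quantile normalization B2m was farther in CD44+CD62L- cells (0.86 against 0.67). It rose by 1.01 ± 0.01 (SE, adjusted p = 1.6e-18 in limma's fit) in cocktail CD44+CD62L+ cells, the 1 member called there, where 14.4% of genes tested rose. With a pseudocount of 5, and after quantile normalization, it was under 2-fold, at 0.99 and 0.82. In cocktail CD44+CD62L- cells it was higher by 0.90, and 0 of 9 members were called, where 13.9% of genes tested rose.

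H2-K1 was within 0.17 of its naive level in every cocktail population (0.17 to 0.22 above it after quantile normalization), at 0.03 in CD44+CD62L- cells and 0.01 in CD44+CD62L+ cells. H2-D1 was higher by 0.39, 0.36 and 0.45 in CD44+CD62L-, CD44+CD62L+ and CD44loCD62L+ cells. The Nlrc5 difference was 0.11 in both CD44+ populations, and it was at -0.003 after quantile normalization in the CD44+CD62L- cells. Quantile normalization moved the median of all genes tested to -0.114 in the CD44+CD62L+ comparison and to -0.105 in the CD44+CD62L- comparison, from -0.0043 and -0.0007.

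**Figure D2:**
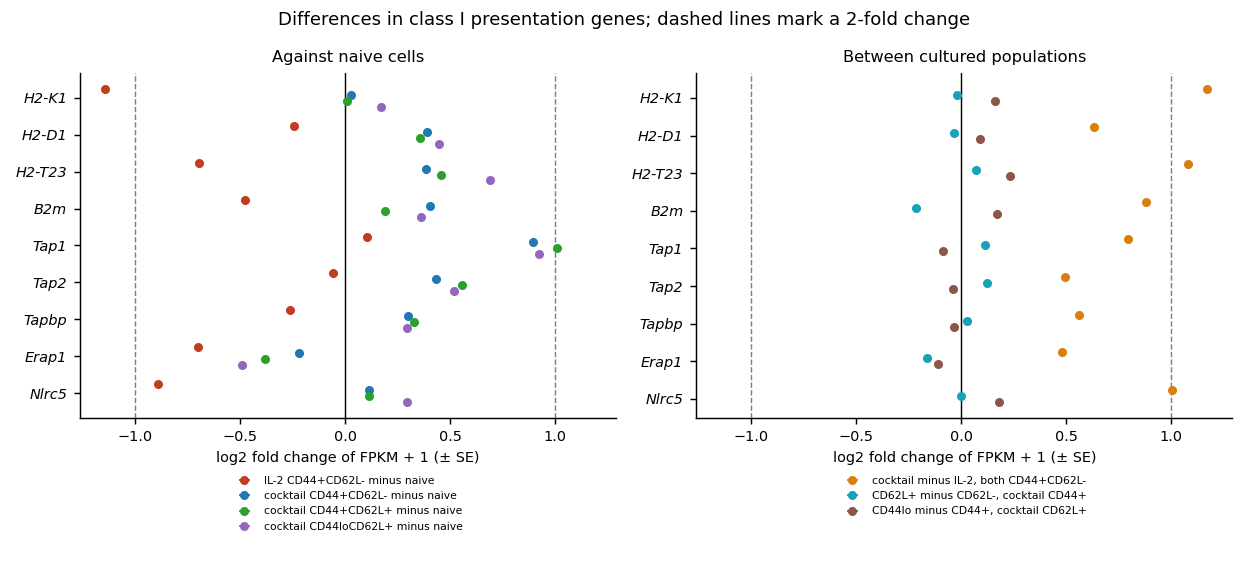
Log2 fold changes of FPKM + 1 (x axis; points, with SE lines mostly smaller than the points) of the 9 genes (y axis), against naive cells on the left and between cultured populations on the right, with dashed lines at a 2-fold change. H2-K1 lies at -1.14 in IL-2 cells and within 0.17 of 0 in the cocktail populations, whereas Tap1 lies at 0.90 to 1.01 in the cocktail populations and at 0.10 in IL-2 cells (-0.28 after quantile normalization).

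Within the cocktail culture the gates made small differences. Between CD62L+ and CD62L- cells, both CD44+, 0 of 9 members were called, as were 0.116% of genes tested in either direction, and the member median was 0.00. The largest values were B2m at -0.22, Erap1 at -0.16, Tap2 at 0.12 and Tap1 at 0.11. H2-T23 was at 0.07, Tapbp at 0.03, H2-K1 at -0.02 and H2-D1 at -0.03, which was at 0.05 after quantile normalization. Nlrc5 was at 0.00, with limma's adjusted p = 0.991. By limma's adjusted p alone 4 members were higher and 4 lower, where 48.3% of genes tested passed.

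Between CD44lo and CD44+ cells, both CD62L+, 0 of 9 were called, against 2.68% of genes tested. H2-T23 was higher by 0.23, Nlrc5 by 0.18 and H2-K1 by 0.16 in CD44lo cells. B2m was at 0.17 and H2-D1 at 0.09, but they were at -0.10 and -0.02 after quantile normalization. Erap1 was at -0.11 and Tap1 at -0.09, and Tap2 at -0.04 and Tapbp at -0.03 were at 0.04 and 0.01 after quantile normalization. The heavy chains with Nlrc5 and the transporter with its chaperone thus had opposite signs across this gate, all under 1.5-fold, but not after quantile normalization, when H2-D1, Tap2 and Tapbp changed sign.

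Ratios within a library do not depend on its scaling by a common factor. The ratio of H2-K1 to H2-D1 FPKM was 1.71, 1.72 and 1.73 in naive libraries and 0.920, 0.927 and 0.924 in IL-2 libraries. H2-K1 was therefore the more abundant transcript of the pair in naive cells and the less abundant in IL-2 cells. In the cocktail the mean ratio was 1.34 ± 0.01 in CD44+CD62L- cells, 1.35 ± 0.01 in CD44+CD62L+ cells and 1.42 ± 0.01 in CD44loCD62L+ cells (SD, n = 3 each). Every cocktail library lay between the naive and the IL-2 libraries. These genes are close relatives, and how the authors' software assigned reads that fit more than 1 heavy chain gene is not stated in the sources used here.

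The ratio of both classical heavy chains together to B2m was 0.651 ± 0.007 in IL-2 cells and 0.784 ± 0.006 in naive cells. In cocktail cells it was 0.666 ± 0.001 for CD44+CD62L-, close to IL-2 cells, and 0.760 ± 0.001 and 0.740 ± 0.004 for CD44+CD62L+ and CD44loCD62L+, nearer naive cells (SD, n = 3 each). The CD62L+ populations, cultured or naive, thus all had a higher summed ratio than the CD62L- populations, without overlap. A higher ratio need not mean more heavy chain transcript. Across the CD62L gate of cocktail CD44+ cells, H2-K1 differed by -0.02 and H2-D1 by -0.03, but B2m by -0.22. The higher ratio there thus went with lower B2m. H2-K1 taken by itself also split the populations by CD62L, at 0.312 and 0.382 per B2m in CD62L- cells and 0.434 to 0.496 in CD62L+ cells. Nlrc5 per B2m did so too, at 0.0155 and 0.0171 in CD62L- cells and 0.0199 to 0.0209 in CD62L+ cells. H2-D1 taken by itself did not have this split. Its ratio to B2m was highest in IL-2 cells (0.338), and was 0.285 in cocktail CD44+CD62L- cells against 0.288 in naive cells. Tap1 to Tap2 was 1.07 ± 0.01 in naive cells, 1.20 ± 0.02 in IL-2 cells and between 1.42 ± 0.02 and 1.48 ± 0.01 in the cocktail populations. These ratios were not taken after quantile normalization, which is not a common factor. It moved B2m against naive cells from 0.19 to 0.71 in cocktail CD44+CD62L+ cells and from 0.41 to 0.86 in CD44+CD62L- cells. H2-K1 and H2-D1 moved less there, so how near a ratio to B2m lies to that of naive cells can depend on the scaling.

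**Figure D3:**
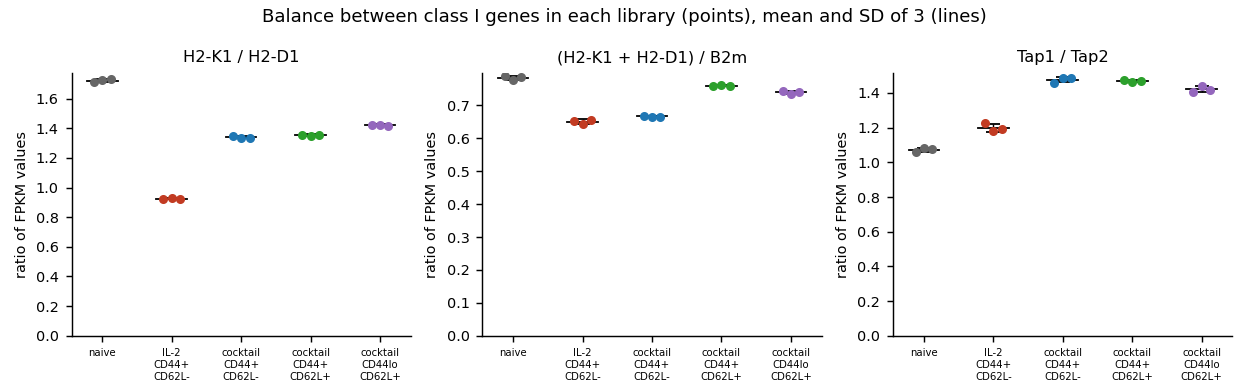
Ratios of FPKM values (y axis, from 0) in each library (points) of the 5 populations (x axis), with lines for the mean and SD of 3 libraries. H2-K1 to H2-D1 falls below 1 in IL-2 libraries only, and the summed classical heavy chains per B2m separate the CD62L- populations (0.651 and 0.666) from the CD62L+ ones (0.740 to 0.784). H2-D1 alone per B2m, not drawn, does not separate them.

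The members did not vary as one block over the 15 libraries. Pearson's r of log2(FPKM + 1) between pairs of members was at least 0.9 in 17 of the 36 pairs. It was highest for H2-K1 with Nlrc5 (0.993), followed by Tap1 with Tap2 and H2-D1 with Tapbp (both 0.985), and lowest for Tap1 with Erap1 (-0.106). The 15 libraries form 5 tight clusters, so these values describe 5 populations and carry no p.

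Among 7154 genes with a population mean of at least 10 FPKM, the closest in pattern to H2-K1 was Fas, the death receptor gene (r = 0.998), at 1.93 FPKM in IL-2 cells, 33.9 to 41.8 in the cocktail populations and 31.1 in naive cells. Crim1 and Cyth3 came next. Closest to H2-T23 were Fam168a, the class I gene H2-Q6 and Traf3ip2, and closest to B2m were Kdm3a, a histone demethylase gene, and the interferon-induced GTPase genes Gbp4 and Gbp7. H2-D1 lay nearest to Etv6, the interferon-induced GTPase gene Iigp1 and Ms4a4b.

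Tap1 lay nearest to Serpina3f (0.828 FPKM in IL-2 cells, 32.2 to 33.1 in the cocktail, 0.181 in naive cells), Lif and Nrn1, and Tap2 to Stim2, Cd9 and Tgm2. These 6 were high in the cocktail populations and low in both IL-2 and naive cells, as the transporter genes were. Tapbp was nearest to Ly6e, Ubash3a and Lime1, and Nlrc5 to Ctdsp2, Arrb1 and Birc2. Erap1 had the least close neighbours, with Prkd3 at r = 0.991, then Itgb7 and Pum2.

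Other class I heavy chain genes, the Q, T and M genes of the MHC with the relatives Cd1d1 and Mr1, were listed as 20 genes, of which 19 were in the table and 17 were tested. In the cocktail against IL-2 CD44+CD62L- cells 11 of the 17 rose and 0 fell, with a median of 1.09, where 4.64% of all genes tested rose and 3.2% fell. H2-Q7 was at 441 against 136 FPKM and H2-Q4 at 421 against 139, while Cd1d1 (9.91 against 5.79) and H2-T24 (21.1 against 12.3) were under 2-fold. Between IL-2 and naive cells 7 fell and 0 rose, with a median of -0.75 (9 and 0, with a median of -1.15, after quantile normalization), where 13.7% of all genes tested fell and 17.6% rose. H2-K2 was at 8.02 against 52.3 FPKM and H2-Q9 at 106 against 344, while H2-T9 (35.4 against 37.3) had an adjusted p of 0.168 in limma's fit.

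Between cocktail CD44loCD62L+ and naive cells 3 of the 17 rose, near the 11.6% of all genes tested, and 0 fell, with a median of 0.57 (2 and 0, with 0.27, after quantile normalization). Among those that rose were H2-T9 (127 against 37.3 FPKM) and H2-Q7 (571 against 229). H2-K2 was lower there, at 27.5 against 52.3, under 2-fold. In cocktail CD44+CD62L+ against naive cells 3 of the 17 rose and 2 fell, with a median of 0.34, where 14.4% of all genes tested rose. In cocktail CD44+CD62L- cells 2 rose and 1 fell, with a median of 0.23, where 13.9% of all genes tested rose. Summed over the 19 genes, FPKM ran from 698 to 703 in IL-2 libraries, 1605 to 1621 in naive libraries and 1834 to 2387 in cocktail libraries, without overlap. Several of the Q and T genes are near-identical copies, so reads may have been split between them and their single values are uncertain.

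**Figure D4:**
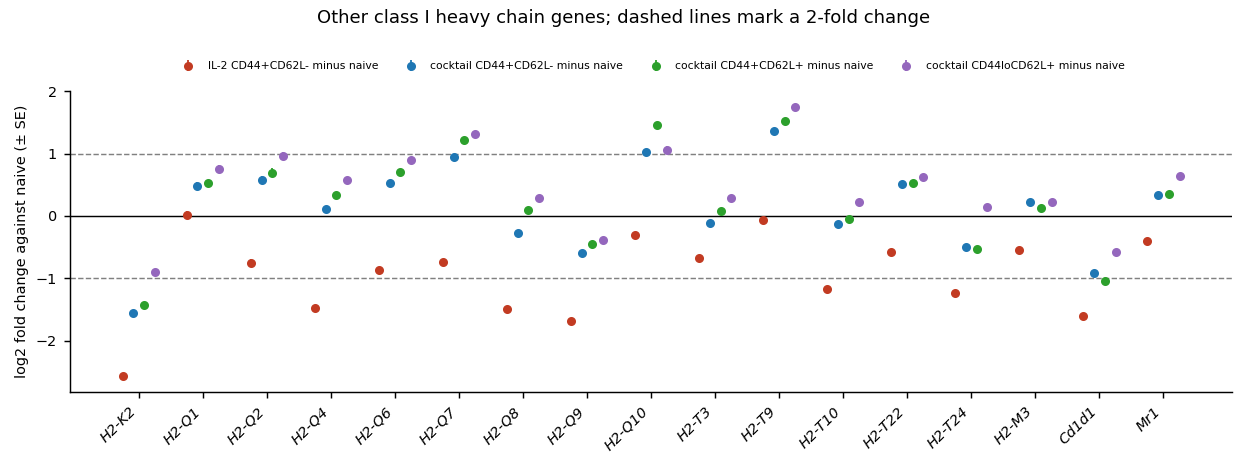
Log2 fold changes of FPKM + 1 against naive cells (y axis; points, with SE lines mostly smaller than the points) of the 17 other class I heavy chain genes tested (x axis) in the 4 cultured populations, with dashed lines at a 2-fold change. IL-2 cells have the lowest value of the 4 populations in each gene, and H2-T9, H2-Q7 and H2-Q10 are the highest in the cocktail.

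Of 8 genes listed and tested for peptide loading and folding in the endoplasmic reticulum, 3 rose and 0 fell in IL-2 against naive cells, with a median of 0.85, and 1 rose and 1 fell after quantile normalization, with a median of 0.50. Over all genes tested 17.6% rose. Pdia6 was at 155 against 41.3 FPKM and Pdia3, which forms part of the loading complex as ERp57, at 346 against 149. Tapbpl, the peptide editor TAPBPR, was lower at 36.4 against 72.4, just under 2-fold. Between cocktail and IL-2 CD44+CD62L- cells 0 of the 8 were called, where 4.64% of all genes tested rose and 3.2% fell. Calr was at 321 against 488 FPKM and Pdia6 at 82.3 against 155, whereas Tapbpl was higher at 60.8 against 36.4. Against naive cells the list's median was 0.31 in cocktail CD44+CD62L-, 0.24 in CD44+CD62L+ and -0.14 in CD44loCD62L+ cells, with 1, 0 and 0 genes called. The 1 called gene rose, and 13.9%, 14.4% and 11.6% of all genes tested rose in these populations.

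Of 9 proteasome genes that bear on class I peptides, 0 were called between cocktail and IL-2 CD44+CD62L- cells. Over all genes tested 4.64% rose and 3.2% fell in that comparison. The immunoproteasome subunits Psmb9 (466 against 279 FPKM) and Psmb10 (186 against 123) were higher in the cocktail, and the constitutive subunit Psmb5 (134 against 218) and the activator Psme3 (66.2 against 107) were lower. In IL-2 against naive cells Psmb7 (245 against 92.4) and Psmb5 (218 against 107) rose, 2 of 9 against 17.6% of all genes tested (1 rose and 1 fell after quantile normalization), while Psmb10 (123 against 177) and Psme1 (353 against 501.5) were lower, under 2-fold. In cocktail CD44loCD62L+ against naive cells Psmb9, the neighbour of Tap1, was the 1 of 9 that rose (11.6% of all genes tested did), at 372 against 183 FPKM (0 of 9 after quantile normalization), and Psmb8 was at 549 against 320.5.

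Among 14 factors that act at class I promoters, 13 were tested. In IL-2 against naive cells 2 of the 13 fell and 1 rose, where 13.7% of all genes tested fell and 17.6% rose: Irf1, an activator, was at 47.3 against 241 FPKM, Irf2 at 25.2 against 57.9, and Irf8 at 45.3 against 4.06. Between cocktail and IL-2 CD44+CD62L- cells, where 4.64% of all genes rose and 3.2% fell, 1 of the 13 rose, Irf1 at 125 against 47.3, and 1 fell, Irf8 at 22.04 against 45.3, which was under 2-fold after quantile normalization. Rfx5, a subunit of the complex that binds the X box, was at 9.93 against 5.29 FPKM. Irf1 was at 130 FPKM in cocktail CD44loCD62L+ cells, below the naive level, and its part in the class I values was not tested.

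The 13 interferon signalling genes were all tested. In the cocktail against IL-2 CD44+CD62L- cells 3 rose, among them Ifnar2 (58.6 against 23.7 FPKM), which encodes a chain of the type I interferon receptor, and 1 fell, where 4.64% of all genes tested rose and 3.2% fell. The one that fell was Ifng, the interferon-gamma gene itself, at 6.63 against 43.2 FPKM. Naive cells had Ifng at 0.206 FPKM. Ifngr2, which encodes the signalling chain of the interferon-gamma receptor, was at 0.250 FPKM in IL-2 cells, 4.28 in cocktail CD44loCD62L+ cells and 26.0 in naive cells. Ifngr1, the ligand-binding chain, was at 302 in IL-2 cells against 144 in naive cells. IL-2 cells thus had the most Ifng transcript and the least Ifngr2.

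**Figure D5:**
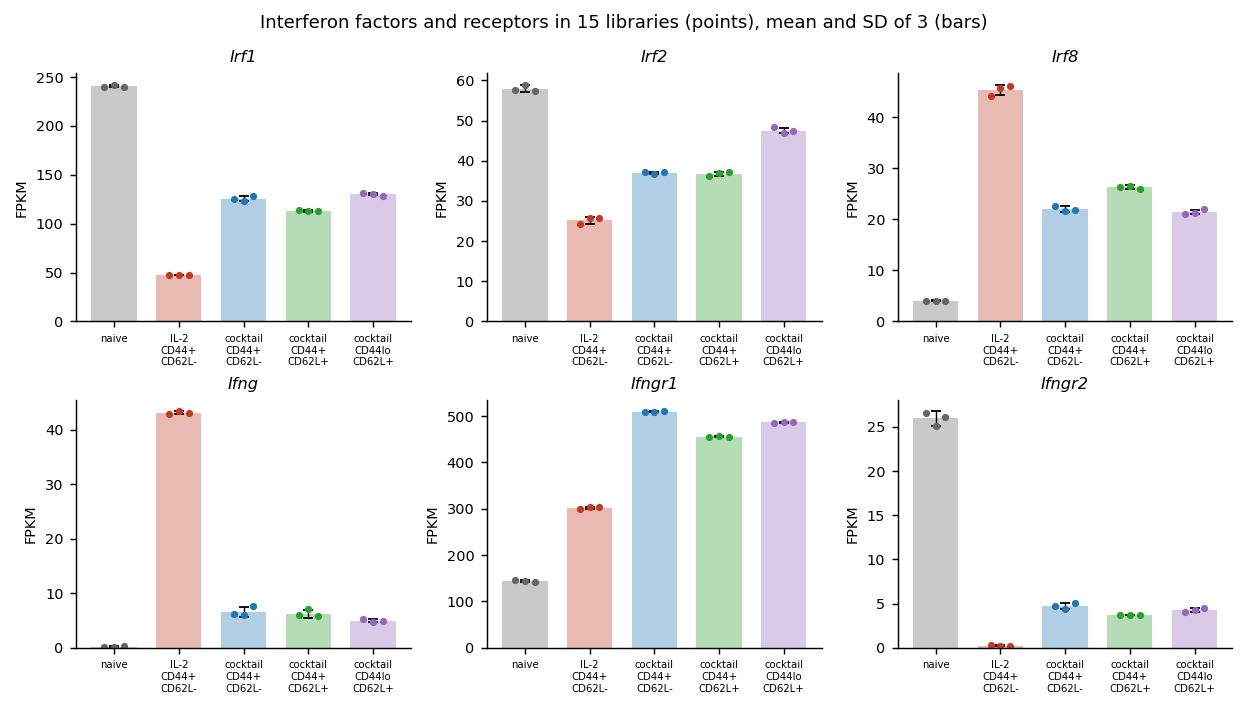
FPKM (y axis, from 0) of 6 interferon factors and receptor genes in each library (points) of the 5 populations (x axis), with bars for the mean and lines for the SD of 3 libraries. IL-2 cells have the highest Ifng (43.2) and Irf8 (45.3) and the lowest Irf1 (47.3), Irf2 (25.2) and Ifngr2 (0.250), and naive cells the highest Irf1, Irf2 and Ifngr2.

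Of 24 interferon-induced genes, all tested, 12 rose and 0 fell in the cocktail against IL-2 CD44+CD62L- cells, with a median of 0.96, where 4.64% of all genes tested rose. Iigp1 was at 90.1 against 2.07 FPKM and Gbp2 at 170.0 against 16.1, while Mx1 (66.4 against 119) and Bst2 (280 against 365.5) were lower in the cocktail, under 2-fold. In cocktail CD44loCD62L+ against naive cells 13 rose and 0 fell, where 11.6% of all genes tested rose, led by Mx1 (91.1 against 7.61) and Iigp1 (93.2 against 9.83). In IL-2 against naive cells 5 rose and 5 fell, near the shares of all genes tested (17.6% and 13.7%): Mx1 (119 against 7.61) and Ifi27l2a (1358 against 367) stood at one end and the GTPase genes Tgtp1 (3.89 against 42.0) and Tgtp2 (8.83 against 49.3) at the other. Tgtp1 and Tgtp2 are near-identical copies, so their single values are uncertain.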

How the data were processed

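The FPKM values are those the authors deposited, 1 column per library. Per the submitters' processing notes, the build was mm10 and the tools were the aligner TopHat2 2.0.9 and the quantifier Cuffdiff 2.1.1. Annotation, strand setting and multi-read handling are not stated in the sources used here. FPKM carry no read counts. At the best scale 31.2% to 58.1% of 19787 ratios of low values were whole to within 0.05. The share by chance is 10% at a fixed scale, and picking the best scale raises it, so these shares cannot be compared directly. Reads were not recovered from the values, which leaves depth unknown. Of all genes, 6039 were at 0 in every library, Eef1a1 among them, so a 0 can be a failed estimate.

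Values were taken to log2(FPKM + 1) and genes with a population mean of at least 1 FPKM kept. limma 3.58.1 in R 4.3.3 (lmFit, eBayes with trend) was fitted to all 15 libraries by population for 7 main comparisons of 10. The fit was tested on simulated data. Promoter windows were searched, and figures drawn, in Python 3.11.15 with pandas 2.3.3 and matplotlib 3.10.9. The members and gene lists were chosen with earlier results of these data known, so counts over them carry no test. From each list, up to 4 genes with a mean of at least 5 FPKM were named, the 2 highest and 2 lowest by fold change in the comparison. Genes nearest to a member are the 3 with the highest Pearson r. Other settings tried were leaving out each library, a 1.5-fold minimum, quantile and median-ratio scaling, pseudocounts of 5 and 0.1, a filter of 5 FPKM or none, fitting only the 6 libraries compared, a replicate block and no variance trend.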

Additional observations from a re-analysis of the deposited data

How the results depend on the processing

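Of 630 values of single members under other settings, 608 kept their direction and their side of the thresholds, 3 lost the call, 11 gained one and 8 reversed, and of 378 with 1 library left out 373 kept both. A pseudocount of 5 lowered the number of genes changed to 379 between cocktail and IL-2 CD44+CD62L- cells (main value 882), 7 across the CD62L gate (13), 178 across the CD44 gate (301), and 1014, 1412, 1393 and 2038 against naive cells in cocktail CD44loCD62L+, CD44+CD62L+, CD44+CD62L- and IL-2 cells (1993, 2564, 2530 and 3519). A pseudocount of 0.1 raised the first 3 to 1393, 41 and 495. A 1.5-fold minimum gave 2467, 71, 974, 4040, 4888, 4913 and 6020 genes in the same order, and 6, 2, 1 and 4 members between the media, and against naive cells in cocktail CD44loCD62L+, cocktail CD44+CD62L- and IL-2 cells (3, 0, 0 and 1). Members changed between cocktail CD44+CD62L+ and naive cells went from 1 to 0 with a pseudocount of 5 or quantile normalization, which gave 3 in IL-2 cells. Quantile normalization reversed H2-D1 across the CD62L gate (0.046), H2-D1 (-0.024), B2m (-0.10), Tap2 (0.042) and Tapbp (0.0056) across the CD44 gate, and, against naive cells, Nlrc5 in cocktail CD44+CD62L- (-0.0032) and Tap1 in IL-2 cells (-0.28); the cause was not tested. Nlrc5 across the CD62L gate, 0.0003 as reported, was at -0.0025 with median-ratio scaling and between -0.0048 and 0.0060 with 1 library left out. Leaving out 1 library gave 2 to 3 members and 881 to 890 genes between the media, 13 to 16 genes across the CD62L gate, 301 to 313 across the CD44 gate, and 1990 to 2009, 2567 to 2584, 2528 to 2553 and 3517 to 3530 against naive cells.

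With the replicate number as a block, 3 members and 881 genes changed between the media, and member counts were the same in all 7 comparisons. Same-numbered libraries of different populations did not deviate together (median correlation -0.014 over 30 pairs, 2 over 0.1). Differently numbered ones had a median of 0.017 over 60 pairs, 10 over 0.1. The numbers thus gave no sign of pairing the samples, but technical libraries this alike cannot show that no mouse, culture or run was shared. The unknown depth leaves counting error unstated.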

Other observations

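Receptors that bind class I molecules, together with relatives of such receptors, were listed as 16 genes, of which 9 passed the filter on low values. Binding was not measured, and Lilrb4 is not taken here as a class I receptor. In naive cells 11 of the 16 had a mean under 1 FPKM, so some of the 9 passed only through a cultured population. For these a rise over naive cells was largely fixed in advance, and the counts of rises below carry no weight. In IL-2 against naive cells 5 of the 9 rose and 2 fell, where 17.6% of all genes tested rose and 13.7% fell, so the share that fell was near that of all genes. Those 2 were both chains of the CD8 co-receptor, which binds class I on the presenting cell: Cd8b1 was at 263 against 1059 FPKM and Cd8a at 218 against 465. Klrc1, which encodes NKG2A, the receptor for the H2-T23 product Qa-1, was at 173 against 1.34 FPKM, and Klra5 at 119 against 0.157. Klrc1 was highest in the population with the lowest H2-T23, and lowest in naive cells.

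In cocktail CD44loCD62L+ against naive cells 6 of the 9 rose and 1 fell, where 11.6% of all genes tested rose and 6.11% fell. The filter limits this count of rises in the same way. Klrc1 was at 66.9 against 1.34 FPKM and Lilrb4, an inhibitory receptor gene, at 118 against 0.842, while Cd8b1 was at 452 against 1059 and Cd8a at 309 against 465. Between cocktail and IL-2 CD44+CD62L- cells 1 of the 9 rose and 1 fell, where 4.64% and 3.2% of all genes tested did: Lilrb4 rose (114 against 28.2 FPKM) and Klra5 fell (16.7 against 119), and Klrc1 was at 96.1 against 173, under 2-fold. Killer lectin-like receptor genes have close relatives in the same cluster, so their single values are uncertain.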
